A study of Homo sapiens with 6 samples.

Results

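The genes described are zinc finger genes whose symbol is ZNF followed by a number and at most 1 letter, chosen by their mean log2 value over the 6 arrays, which had to reach 5.96, the median of all probe-set means. The annotation named 471 such genes through 488 probe sets. Of these, 403 passed the threshold and are the members, and 68 lay below it. Where a gene had several probe sets, the probe set with the highest mean stood for it. The choice of members used the mean level alone, so levels are given as description and only differences between siRNAs are tested. All 403 members were among the 10640 named genes tested, because the test used the same threshold.

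RNA was compared in MDA-MB-231, a human triple-negative breast cancer cell line with a mesenchymal character, after transfection of siATM, sip53 or the control siNC with Lipofectamine RNAiMAX. Every group carried an siRNA and the transfection reagent, and no untransfected group was analysed here. Each siRNA had 2 samples, each on its own Affymetrix Human Gene 2.0 ST array, and the labels leave unsaid whether the samples of a group were separate cultures. The p-values therefore reflect the variation seen between replicate arrays, which may be only technical. How far each knockdown went was not analysed here, and all results rest on 1 cell line and on siRNAs whose sequences and number were not given in the sources used here.

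ZNF genes make up most of the C2H2 class, proteins that read DNA through arrays of short fingers in which cysteines and histidines hold a zinc ion. Many also carry a KRAB domain, which binds TRIM28 and through it brings SETDB1, HP1 proteins and histone deacetylases to DNA, often over transposable elements. Many lie in clusters of duplicated genes on chromosome 19, and members of a cluster can be nearly identical in sequence. A few symbols of the family name proteins of another build, such as ZNF185, a LIM domain protein associated with actin.

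The mesenchymal genes VIM, CD44, AXL, MSN, FOSL1 and EPAS1 had high values, and their mean was 11.49 to 11.54 on all 6 arrays. Of these 6, 1 was called lower after siATM (16.7%; 13.0% of all tested genes) and 0 after sip53. ESR1, PGR and FOXA1, which a triple-negative line should hold low, lay below the threshold at 5.73, 4.79 and 5.31. The other 4 of 7 luminal and receptor genes measured, GATA3, KRT19, EPCAM and TFF1, lay above it, and the mean of the 7 was 7.23 to 7.26 in siNC, 7.23 to 7.35 in siATM and 7.27 to 7.30 in sip53. GATA3 rose by 0.31 after siATM and 0.65 after sip53, and KRT19 rose by 0.29 after siATM. The haematopoietic genes measured, CD14 and LYZ, had a mean of 7.65 to 7.67 in siNC, 8.42 to 8.46 in siATM and 7.10 to 7.28 in sip53, and their part in the results below was not tested. Of 4 endothelial and fibroblast genes measured, LUM and PECAM1 lay above the threshold, and the mean of the 4 was 5.54 to 5.72 over all arrays. LUM rose by 0.68 after siATM and 0.49 after sip53, and PECAM1 fell by 0.47 after siATM; their part was not tested either. In bulk RNA, fewer cells of a type and less RNA per cell cannot be told apart.

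Members sat in the lower and middle part of the range. Their mean log2 values ran from 5.99 to 11.11 with a median of 7.66 and quartiles of 7.05 and 8.43, where all tested genes had a median of 8.12. Only 6 members (1.49%) had a mean of 10 or more, against 1587 tested genes (14.9%). The brightest were ZNF121 at 11.11, ZNF207, a kinetochore and spindle protein, at 10.96, ZNF358 at 10.74, ZNF841 at 10.49 and ZNF384 at 10.18. Values of different probe sets depend on their probes as well as on transcript level, so this order is not an order of abundance. Just inside the threshold were ZNF542P at 6.01, ZNF345 at 6.0 and ZNF441 at 5.99, and just outside it ZNF396 at 5.96, ZNF443 at 5.94 and ZNF273 at 5.93. The median over the members was 7.60 and 7.58 on the siNC arrays, 7.73 and 7.68 on the siATM arrays, and 7.71 and 7.69 on the sip53 arrays, so the siNC arrays were lowest. Over all tested genes the array medians stayed between 8.10 and 8.15. The SD of the difference between the replicate arrays was 0.139 over the members against 0.124 over all tested genes for siNC, 0.167 against 0.148 for siATM, and 0.135 against 0.115 for sip53.

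Promoters, taken from RefSeq on GRCh38.p14 as 250 bases before to 50 after the annotated start, were found for 349 of the 403 members. Members' promoters had a median GC content of 61.7% and 22 CpG dinucleotides, below the 65.0% and 25 of the 8223 tested genes with a promoter. The motifs CCAAT, CCGGAAGT and GGGCGG and the consensus motifs of BANP, NRF1 and YY1 were searched on both strands, with overlapping matches allowed. CCGGAAGT, the core of an ETS site, was in 19.5% of members' promoters, in 8.06% of those of tested genes and in 4.44% of all 27305 promoters of the table. CCAAT was in 47.9%, 36.1% and 35.7% of the same sets, and GGGCGG, an SP1-type GC box, in 64.2%, 68.4% and 44.6%. The BANP motif was in 0.86%, 0.815% and 0.469%, the NRF1 motif in 1.72%, 2.29% and 1.36%, and the YY1 motif in 1.72%, 2.48% and 1.28%.

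Some members had promoters that were close copies. Over all 60726 pairs of members' promoters the median identity in a global alignment was 59.0%, whereas joining promoters of at least 75% identity gave a family of 20 around ZNF91, with a median identity of 80.3% inside it. Of these, 17 lie on chromosome 19 and 3 on chromosome 7. Promoters of the family need not reach 75% identity with each other or with ZNF91. That of ZNF429 was 68.0% identical to that of ZNF91, and ZNF429 left the family at 80%. The promoters of 3 are shown because all 3 genes rose after sip53 while their promoters came from 2 chromosomes: ZNF91 (chr19:23395422-23395721, minus strand), ZNF626 (chr19:20661522-20661821, minus strand) and ZNF138 (chr7:64794178-64794477, plus strand). They are written 5′ to 3′ in the direction of transcription, with matches to CCAAT and GGGCGG on either strand in capitals.
ZNF91: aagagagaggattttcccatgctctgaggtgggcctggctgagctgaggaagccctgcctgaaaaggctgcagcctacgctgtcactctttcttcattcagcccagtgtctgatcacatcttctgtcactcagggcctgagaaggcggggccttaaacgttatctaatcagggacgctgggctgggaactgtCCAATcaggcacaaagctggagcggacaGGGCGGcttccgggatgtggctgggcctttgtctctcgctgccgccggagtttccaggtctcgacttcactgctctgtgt
ZNF626: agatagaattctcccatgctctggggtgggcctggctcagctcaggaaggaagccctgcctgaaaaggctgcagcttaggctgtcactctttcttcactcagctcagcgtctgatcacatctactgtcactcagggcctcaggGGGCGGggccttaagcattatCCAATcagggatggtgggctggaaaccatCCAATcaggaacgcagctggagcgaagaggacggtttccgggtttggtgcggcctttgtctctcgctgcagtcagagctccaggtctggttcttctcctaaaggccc
ZNF138: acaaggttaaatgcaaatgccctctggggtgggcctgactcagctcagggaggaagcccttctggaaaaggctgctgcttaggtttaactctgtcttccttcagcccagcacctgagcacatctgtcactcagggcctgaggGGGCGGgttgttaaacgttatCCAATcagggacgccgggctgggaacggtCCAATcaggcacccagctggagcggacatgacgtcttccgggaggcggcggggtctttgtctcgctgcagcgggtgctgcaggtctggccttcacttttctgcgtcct
ZNF91 and ZNF626 were 84.0% identical over this window, ZNF91 and ZNF138 80.0%, and ZNF138 and ZNF626 78.3%. All 20 promoters of the family held CCAAT, and 13 of 20 held GGGCGG. A match is a description of the letters and shows no bound factor. Genes this alike can also share probe sequence, so their values may not be independent, and probe sequences were not used here.

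The first comparison asked which transcripts differ when ATM, a kinase activated by broken DNA, is targeted. After siATM, 66 of 403 members rose (16.4%), where 12.5% of all tested genes did, and 15 fell (3.72%), where 13.0% of all tested genes did (limma, Benjamini-Hochberg over 10640 genes, adjusted p below 0.05). In either direction 20.1% of members were called, against 25.5% of all tested genes. The median member's log2 fold change was 0.06 and that of all tested genes 0.00, and 66.5% of members lay above 0, against 49.9% of all. Both siATM arrays lay above both siNC arrays in 174 members (43.2%; 31.9% of all tested genes) and below them in 62 (15.4%; 30.8% of all). The median size of a called change was 0.35 for members and 0.35 for all tested genes. Among the called members 7 were higher and 4 lower by at least 1.5-fold, where 134 and 211 of all 10640 tested genes were called past that fold. The number of members that rose fell to 31 without siNC replicate 1, to 32 without siNC replicate 2 and to 42 without siATM replicate 1, and the number that fell dropped to 8 without siNC replicate 1. Of the 81 calls, 27 (19 higher, 8 lower) held whichever array was left out.

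**Figure D1:**
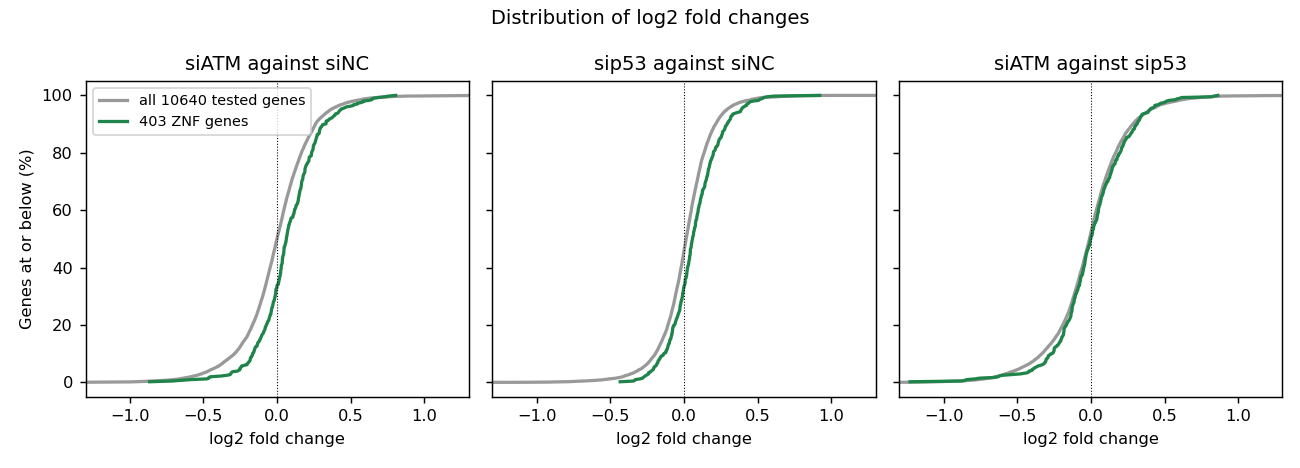
Cumulative share of genes (y axis, percent) at or below each log2 fold change (x axis) for the 403 ZNF genes (green) and all 10640 tested genes (grey) in each comparison. The green curve lies to the right of the grey one in both comparisons with siNC, with medians of 0.06 against 0.00 and 0.06 against 0.01, and close to it for siATM against sip53.

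The distribution of fold changes shows that the members' shift in both comparisons with siNC was carried by many small differences. The comparisons share the siNC arrays, so an odd value on a siNC array would move both. The direct comparison does not use these arrays in its difference, and its median was -0.00 for the members and -0.01 for all tested genes.

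ZNF616 had the largest rise after siATM. Its log2 values were 6.54 and 6.69 in siNC, 7.50 and 7.34 in siATM, and 6.79 and 6.89 in sip53. The siATM arrays were highest and did not overlap with either other group, a 1.75-fold difference from siNC (log2 fold change 0.81, SE 0.08, adjusted p = 0.00102, limma). ZNF397, which pairs its fingers with a SCAN domain, read 6.68 and 6.63 in siNC, 7.46 and 7.36 in siATM, and 6.52 and 6.63 in sip53. The sip53 arrays lay just below the siNC arrays while the siATM arrays stood above both groups (0.76, SE 0.07, adjusted p = 0.000628). ZNF91, a KRAB protein known to silence SVA retrotransposons, read 6.93 and 6.91 in siNC, 7.82 and 7.48 in siATM, and 7.42 and 7.47 in sip53. Its siATM arrays differed from each other by more than its sip53 arrays did, yet both groups lay above siNC (0.73, SE 0.10, adjusted p = 0.00305 for siATM).

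The other large rises after siATM were ZNF581, ZNF33A, ZNF610, ZNF83 and ZNF267, with log2 fold changes from 0.58 to 0.69. ZNF581 read 8.12 and 8.13 in siNC, 8.72 and 8.90 in siATM, and 8.14 and 7.76 in sip53, where the sip53 replicates were far apart. ZNF83 read 9.06 and 8.96 in siNC, 9.67 and 9.59 in siATM, and 8.82 and 8.81 in sip53. Its siATM arrays were highest and its sip53 arrays lowest, with no overlap among the 3 groups, though the sip53 difference from siNC of -0.19 was not called (adjusted p = 0.102). ZNF33A read 7.02 and 7.04 in siNC, 7.70 and 7.66 in siATM, and 7.18 and 7.02 in sip53, so siNC and sip53 overlapped. The calls of all 8 genes after siATM held without any 1 array.

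Falls after siATM were few but included the largest change of any member in this comparison. ZNF367, a C2H2 protein, read 9.32 and 9.34 in siNC, 8.46 and 8.46 in siATM, and 9.65 and 9.73 in sip53. The groups did not overlap, and siATM lay 1.82-fold below siNC (log2 fold change -0.87, SE 0.06, adjusted p = 0.000278). ZNF850 read 9.41 and 9.23 in siNC, 8.66 and 8.55 in siATM, and 9.53 and 9.44 in sip53, so that siATM stood alone at the bottom (-0.72, SE 0.08, adjusted p = 0.00133). ZNF185, the actin-associated LIM protein, read 9.91 and 9.93 in siNC, 9.19 and 9.35 in siATM, and 9.54 and 9.62 in sip53, and both knockdown groups lay below siNC (-0.65 after siATM, SE 0.07, adjusted p = 0.00123). ZNF215, a SCAN and KRAB gene in an imprinted region, read 7.76 and 7.82, 7.22 and 7.19, and 8.04 and 7.94 in siNC, siATM and sip53. ZNF451, a SUMO ligase, fell by 0.48 on the log2 scale with the probe set used, while its other probe set gave -0.11. ZNF100, ZNF614 and ZNF45 completed the group, with fold changes of -0.46, -0.46 and -0.45. In the plot of values by array, ZNF367, ZNF850, ZNF215, ZNF614 and ZNF45 share an order, with siATM at the bottom and sip53 at the level of siNC or above it.

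**Figure D2:**
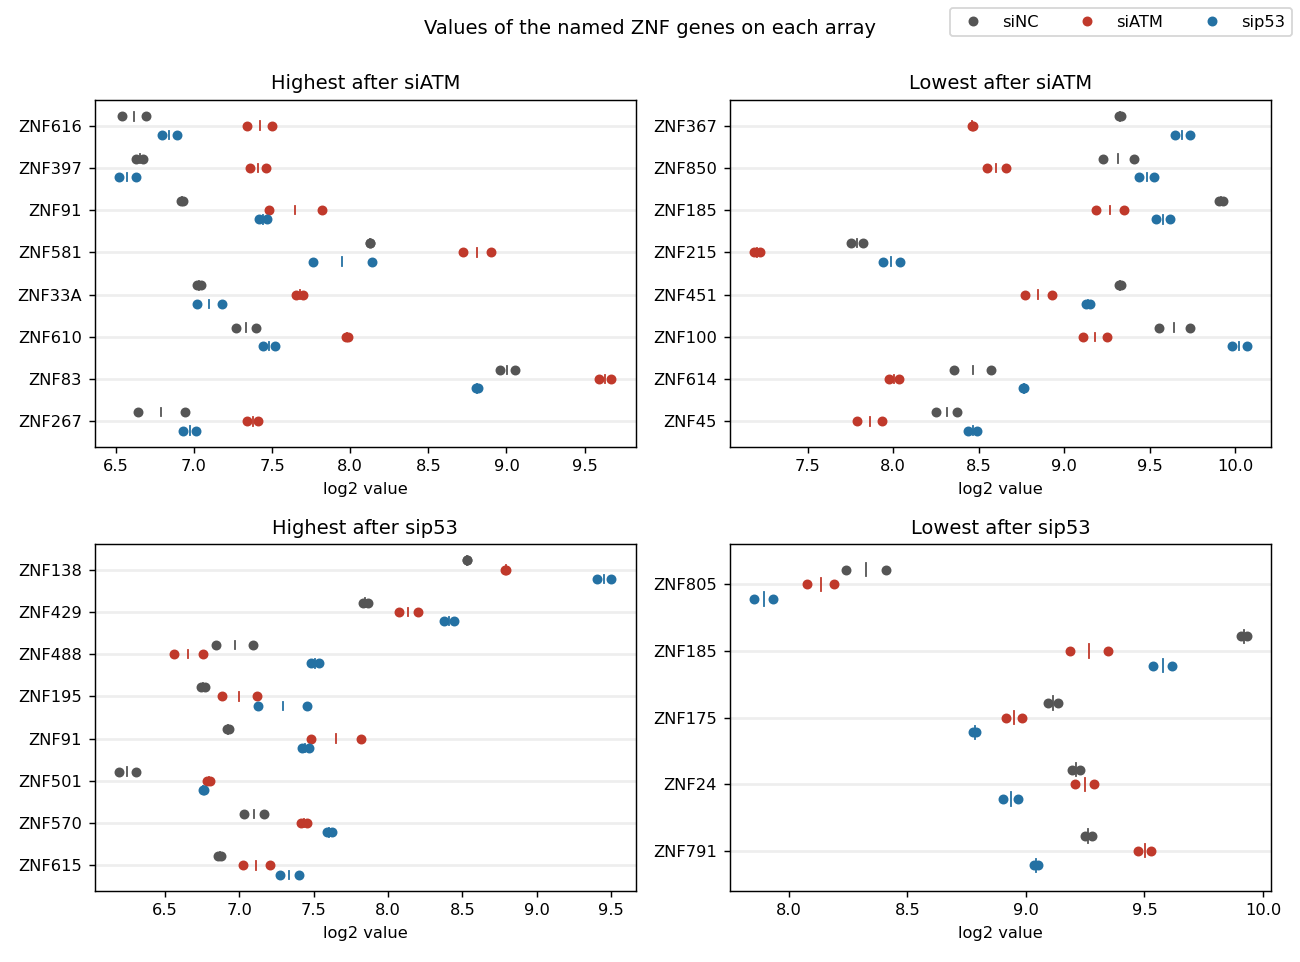
Log2 value (x axis) of the members with the largest called changes, 1 dot per array, with siNC in grey, siATM in red and sip53 in blue; vertical ticks are group means. Members were chosen so that the dots of the siRNA named in each panel do not overlap with the siNC dots. ZNF367 shows the widest gap between siATM (8.46 on both arrays) and sip53 (9.65 and 9.73).

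The second comparison asked the same of sip53 against siNC. After sip53, 30 members rose (7.44%), where 5.47% of all tested genes did, and 5 fell (1.24%), where 5.11% of all did. In either direction 8.68% of members were called, against 10.6% of all tested genes. Centring every array on the median of its tested genes turned these counts into 24 higher and 10 lower. The median log2 fold change was 0.06 for members and 0.01 for all, with 66.7% of members and 54.2% of all genes above 0. Both sip53 arrays lay above both siNC arrays in 171 members (42.4%; 33.1% of all) and below them in 69 (17.1%; 25.8% of all). Among the called members only ZNF138 differed by at least 1.5-fold, where 60 of all tested genes rose and 85 fell by as much. The count of rises rested on each of 4 arrays. It dropped to 6 and 7 when siNC replicate 1 or 2 was left out, and to 6 and 7 when sip53 replicate 1 or 2 was. The count of falls was 0 and 1 without siNC replicate 1 and 2, and 0 without either sip53 array. The calls of ZNF138, ZNF429, ZNF501 and ZNF570 held whichever array was left out.

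ZNF138, a KRAB gene on chromosome 7, had the largest change. It read 8.53 and 8.53 in siNC, 8.79 and 8.79 in siATM, and 9.50 and 9.40 in sip53. The groups formed 3 separate steps, with sip53 1.89-fold above siNC (log2 fold change 0.92, SE 0.06, adjusted p = 0.00112) and siATM above siNC by 0.26 (SE 0.06, adjusted p = 0.0182). The siATM call was lost without siNC replicate 1, siNC replicate 2 or siATM replicate 1, with an adjusted p of up to 0.0828. ZNF429 on chromosome 19 read 7.83 and 7.86 in siNC, 8.20 and 8.07 in siATM, and 8.38 and 8.44 in sip53, in the same order (0.56 after sip53, SE 0.07, adjusted p = 0.0037). Its siATM rise of 0.29 and its direct difference of -0.27 were called. Both calls were lost with no filter on dim genes (adjusted p = 0.0507 and 0.0517, limma). The siATM call of ZNF429 also ended without siNC replicate 1, siNC replicate 2 or siATM replicate 1. Its direct call also ended without siATM replicate 2, sip53 replicate 1 or sip53 replicate 2. ZNF501 read 6.30 and 6.19 in siNC, 6.78 and 6.81 in siATM, and 6.76 and 6.76 in sip53, with both knockdown groups above siNC and close to each other (0.51 after sip53, SE 0.06, adjusted p = 0.00388). ZNF570 read 7.17 and 7.03 in siNC, 7.41 and 7.46 in siATM, and 7.62 and 7.59 in sip53 (0.51, SE 0.07, adjusted p = 0.00494).

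ZNF488, ZNF195, ZNF91 and ZNF615 rose by 0.54, 0.54, 0.52 and 0.47 after sip53. The call of ZNF91 was lost without either siNC or either sip53 array (adjusted p of up to 0.123), that of ZNF195 without either siNC array or sip53 replicate 1 (up to 0.14), and that of ZNF488 when siNC replicate 2 or 1 of the sip53 arrays was left out (up to 0.105). The 5 members that fell were ZNF805, ZNF185, ZNF175, ZNF24 and ZNF791. ZNF805 read 8.41 and 8.24 in siNC, 8.19 and 8.08 in siATM, and 7.93 and 7.85 in sip53, with sip53 lowest and no overlap (-0.43, SE 0.08, adjusted p = 0.0162). Leaving out siNC replicate 1 or 1 of the sip53 arrays ended its call (adjusted p of up to 0.111). ZNF24, a SCAN protein, fell from 9.23 and 9.19 in siNC to 8.97 and 8.90 in sip53, while siATM stayed at 9.29 and 9.21 (-0.28 after sip53, adjusted p = 0.0324). The sip53 calls of ZNF24 (up to 0.186) and ZNF175 (up to 0.0948) ended without any 1 siNC or sip53 array, and that of ZNF615 without siNC replicate 1, siNC replicate 2 or sip53 replicate 1 (up to 0.0892).

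**Figure D3:**
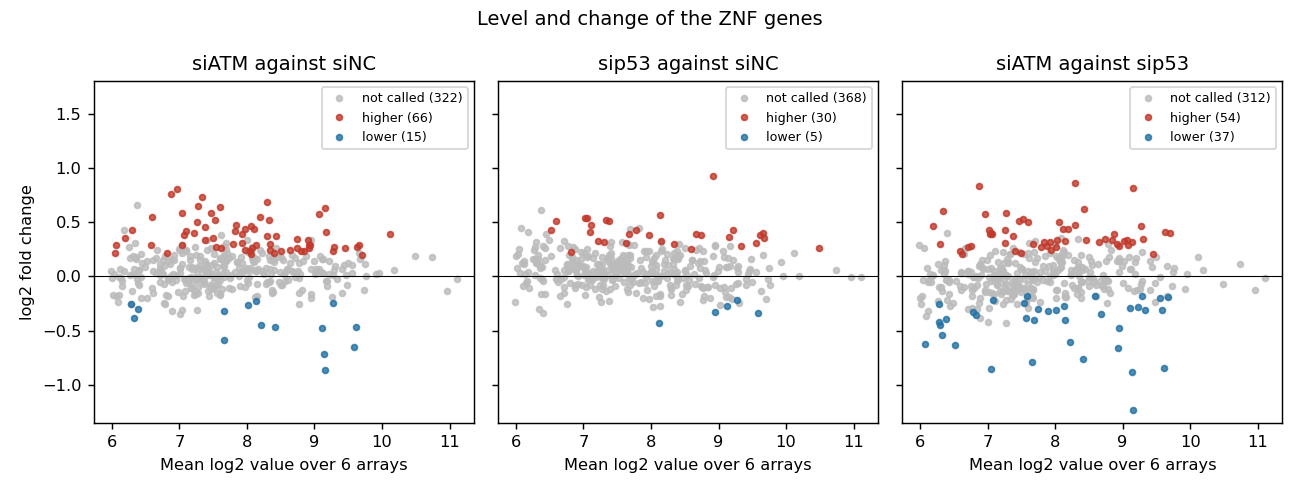
Log2 fold change (y axis) against mean log2 value over the 6 arrays (x axis) of the 403 members in each comparison; red members were higher and blue members lower at an adjusted p below 0.05, and grey members were not called. Calls occur over most of the range of levels, and the lowest point is ZNF367 at -1.23 in siATM against sip53.

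Calls were made across the range of levels shown in the plot of level and change. Of the 201 dimmer members 25 rose and 4 fell after siATM, and of the 202 brighter ones 41 rose and 11 fell. Over all tested genes 7.36% rose and 8.72% fell in the dimmer range, and 15.9% each in the brighter range. After sip53 12 of the dimmer members rose, and 18 of the brighter ones rose and 5 fell, where all tested genes had 3.73% rising and 2.95% falling in the dimmer range and 6.64% and 6.56% in the brighter.

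The direct comparison tested whether siATM and sip53 differed from each other. Here 54 members were higher in siATM (13.4%; 14.0% of all tested genes) and 37 lower (9.18%; 16.3% of all). In either direction 22.6% of members were called, against 30.3% of all tested genes. Counts of 33 and 19 were found without sip53 replicate 1, and of 34 and 21 without sip53 replicate 2. ZNF581, ZNF397 and ZNF83 were highest in siATM relative to sip53, by 0.86, 0.84 and 0.82. ZNF558, ZNF23, ZNF33A, ZNF616 and ZNF624 followed with differences from 0.53 to 0.62, of which that of ZNF23 ended without siNC replicate 1, siNC replicate 2, siATM replicate 1 or sip53 replicate 2 (up to 0.17). ZNF367, ZNF850, ZNF488, ZNF100 and ZNF215 were lowest, by -1.23, -0.88, -0.85, -0.84 and -0.79. ZNF614, ZNF138 and ZNF10, the protein whose KRAB domain is used in many synthetic repressors, followed with -0.76, -0.66 and -0.63.

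ZNF367, ZNF100 and ZNF791 were called against siNC in opposite directions. Their direct differences are made up of the differences from siNC, so the direct calls are not separate evidence. ZNF367 fell after siATM and rose by 0.36 after sip53 (SE 0.06, adjusted p = 0.011), and the groups differed directly 2.34-fold (log2 difference -1.23, SE 0.06, adjusted p = 9.77e-05). ZNF100 read 9.73 and 9.55 in siNC, 9.25 and 9.11 in siATM, and 10.07 and 9.98 in sip53, with siNC between the other groups. Its difference from siNC was -0.46 after siATM (adjusted p = 0.00716) and 0.38 after sip53 (adjusted p = 0.0311), and the direct difference was -0.84 (SE 0.08, adjusted p = 0.000591). ZNF791 read 9.25 and 9.28 in siNC, 9.53 and 9.47 in siATM, and 9.05 and 9.03 in sip53. It differed from siNC by 0.24 after siATM (adjusted p = 0.0206) and by -0.22 after sip53 (adjusted p = 0.0478), and the direct difference was 0.46 (SE 0.06, adjusted p = 0.0012). The 3 direct differences and the siATM falls of ZNF367 and ZNF100 held without any 1 array, but the sip53 calls of all 3 and the siATM rise of ZNF791 did not. The largest adjusted p after sip53 was 0.0923 for ZNF367, 0.164 for ZNF100 and 0.221 for ZNF791, and that of ZNF791 after siATM was 0.104.

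Other members were called against siNC on the same side in both comparisons, which share the siNC arrays, and their values are given side by side. ZNF91 lay at 0.73 after siATM and 0.52 after sip53. ZNF501 lay at 0.55 and 0.51, ZNF117 at 0.42 and 0.41, ZNF304 at 0.44 and 0.38, ZNF253 at 0.35 and 0.39, ZNF570 at 0.33 and 0.51, and ZNF18 at 0.40 and 0.33. Leaving out 1 array ended both calls of ZNF117 (adjusted p of up to 0.123 after siATM and 0.21 after sip53) and of ZNF253 (up to 0.12 and 0.155). It also ended the siATM call of ZNF570, when siNC replicate 2 was out (0.0646), and the sip53 calls of ZNF304 (up to 0.105) and ZNF18 (up to 0.12). For ZNF117, ZNF304 and ZNF18 any siNC or sip53 array ended the sip53 call, and for ZNF253 siNC replicate 1 or any sip53 array. The siATM call of ZNF117 ended without any siNC array or siATM replicate 1, and that of ZNF253 without siNC replicate 1 or any siATM array. ZNF185 lay at -0.65 and -0.34, and its sip53 call was lost without either siNC or either sip53 array (adjusted p of up to 0.159). The direct difference was called for ZNF185 (-0.31, adjusted p = 0.0161), but was lost without siATM replicate 1 or sip53 replicate 2 (up to 0.1). For ZNF91 it was 0.21 with a 95% interval from -0.04 to 0.45, and for ZNF501 0.04 with an interval from -0.11 to 0.18. Of the 403 members, 268 were called in none of the 3 comparisons.

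Members known from other work mostly showed small differences. ZNF217, an oncogene amplified in breast cancer, read 8.89 and 9.01 in siNC, 9.03 and 9.01 in siATM, and 8.95 and 8.80 in sip53, with overlapping groups and 95% intervals from -0.10 to 0.24 after siATM and from -0.25 to 0.09 after sip53. ZNF143, a promoter and chromatin loop factor, ZNF148, a GC-rich element binder, ZNF274, which recruits SETDB1 to the ends of ZNF genes, and ZNF207 had differences from siNC between -0.13 and 0.14, none called. ZNF281, linked to epithelial-mesenchymal transition, read 9.51 and 9.47 in siNC, 9.81 and 9.76 in siATM, and 9.70 and 9.68 in sip53. Its siATM difference was called (0.29, adjusted p = 0.00975; 0.0615 without siNC replicate 2) and its sip53 difference of 0.20 was not (adjusted p = 0.0691), and the direct difference of 0.09 had an interval from -0.04 to 0.23. ZNF703, a breast cancer oncogene, read 9.04 and 9.02 in siNC, 9.09 and 9.25 in siATM, and 9.43 and 9.48 in sip53, highest in sip53 (0.43, SE 0.07, adjusted p = 0.0118), a call that ended without any 1 siNC or sip53 array (up to 0.0896). ZNF395, a gene that responds to hypoxia, was higher in siATM than in sip53 by 0.34 (adjusted p = 0.00803; 0.0622 without sip53 replicate 2) and was not called against siNC.

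Likeness over the 6 arrays was described with Pearson's r among the 402 other members, which follows the 3 groups and their shared normalization. ZNF616 was most like ZNF277 (r = 0.996), ZNF610 (0.991) and ZNF774 (0.983). ZNF367 was most like ZNF215 (0.988), ZNF45 (0.975) and ZNF614 (0.974). ZNF138 was most like ZNF280C (0.987), ZNF85 (0.983) and ZNF626 (0.98), and ZNF805 like ZNF438 (0.934), ZNF175 (0.927) and ZNF98 (0.924).

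The genome holds these genes in rows of neighbours. Of 400 members that could be placed, 195 lie on chromosome 19 and 205 elsewhere. After siATM 32 rose (16.4%) and 7 fell (3.59%) on chromosome 19, and 33 rose (16.1%) and 8 fell (3.9%) elsewhere, where 12.5% of all tested genes rose and 13.0% fell. After sip53 the counts were 17 (8.72%) and 3 (1.54%) on chromosome 19, and 13 (6.34%) and 2 (0.976%) elsewhere, against 5.47% and 5.11% of all tested genes. Runs were defined as at least 6 members with at most 3 other protein-coding genes between neighbours, which gave 13 runs with 186 members. Runs and their values were both examined, so they are described with no test.

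For comparison, 66.7% of all members and 54.2% of all tested genes lay above 0 after sip53, and 5.47% of the tested genes rose. After siATM these shares were 66.5%, 49.9% and 12.5%. In the run of 18 from ZNF101 to ZNF43 on chromosome 19, all 18 members lay above 0 after sip53, between 0.02 and 0.61, with a median of 0.26. The 6 called were ZNF14, ZNF253, ZNF626, ZNF85, ZNF429 and ZNF100. After siATM 12 of the 18 lay above 0 with a median of 0.04, 3 rose and ZNF100 fell. The 3 rises became 0 without siNC replicate 1 and 1 without siNC replicate 2 or siATM replicate 1, and the median became 0.12 without siNC replicate 2. The sip53 count was 1 without siNC replicate 1 or either sip53 array and 3 without siNC replicate 2, and 16 of 18 lay above 0 after centring. The run of 21 from ZNF565 to ZNF607, also on chromosome 19, had 16 of 21 above 0 after siATM, with a median of 0.14. After sip53 18 of its 21 lay above 0, with a median of 0.16. In the run of 22 from ZNF577 to ZNF320 the siATM median was the higher one, but 15 of 22 also lay above 0 after sip53. Of the 22, 13 lay higher in siATM than in sip53, with a median difference of 0.10. After siATM 18 of 22 lay above 0 with a median of 0.19, 7 rose, among them ZNF616, ZNF610 and ZNF83, and ZNF614 fell. Without siNC replicate 1, 4 of these rises were called. After sip53 3 of the 22 rose, with a median of 0.12, and leaving out siNC replicate 1 left 0 calls, and siNC replicate 2 or any sip53 array 1.

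**Figure D4:**
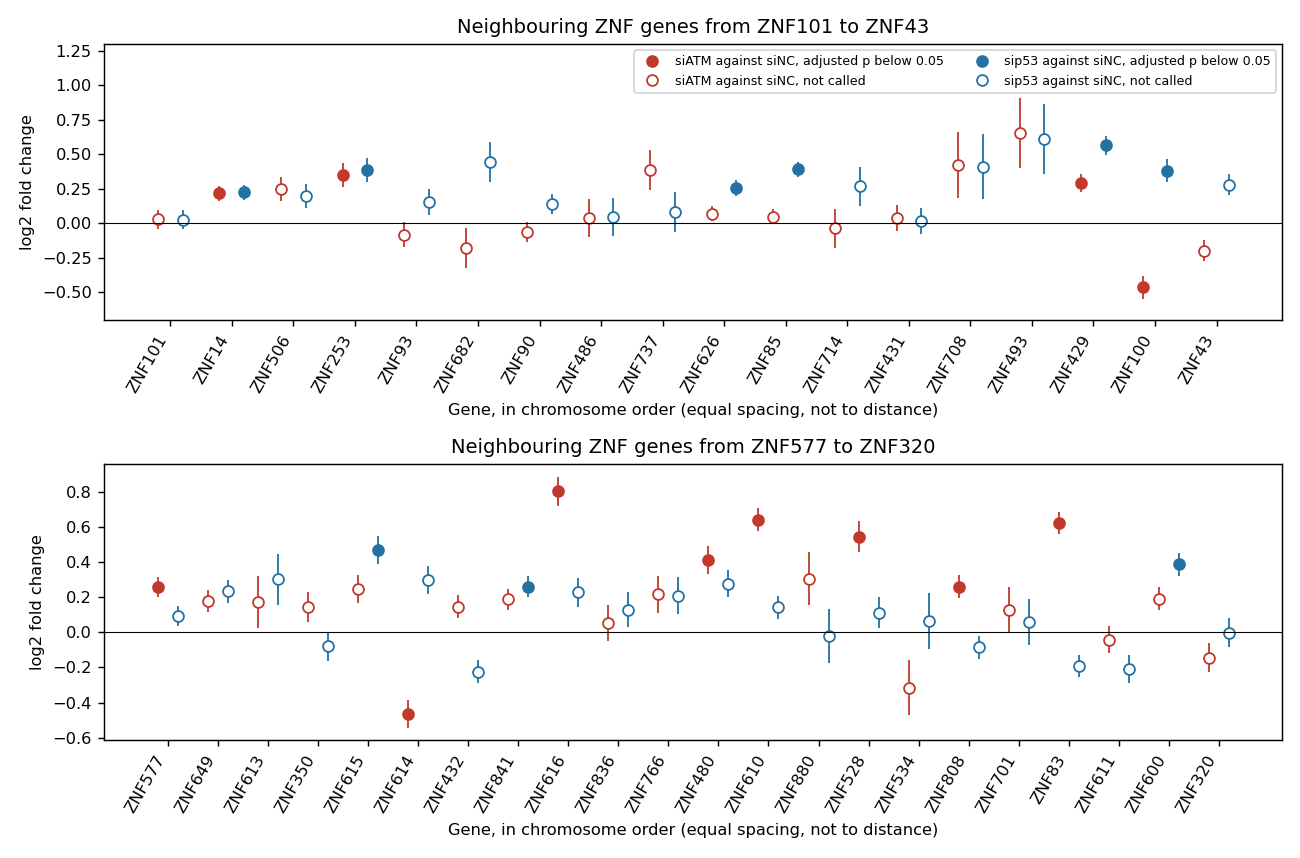
Log2 fold change against siNC (y axis) of neighbouring members of 2 runs on chromosome 19, in chromosome order (x axis, not to distance), for siATM (red) and sip53 (blue); bars are the SE from limma and filled points had an adjusted p below 0.05. All 18 blue points of the upper run lie above 0, and in the lower run ZNF614 lies at -0.46 after siATM, next to neighbours above 0 that were not called in that comparison.

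The promoter family around ZNF91 overlaps with the upper run in 13 of its 20 genes. It adds genes of chromosome 7 and genes of chromosome 19 outside the run. ZNF genes below the level threshold counted as other genes when runs were formed, so a run can end within a cluster. The promoter of ZNF91, outside the run, lies at chr19:23395422-23395721, and that of ZNF100, inside it, at chr19:21767530-21767829. After sip53 all 20 lay above 0, between 0.02 and 0.92, with a median of 0.29 where all members had 0.06, and 7 rose: ZNF138, ZNF429, ZNF91, ZNF681, ZNF85, ZNF100 and ZNF626. Above 0 after sip53 were 66.7% of all members and 54.2% of all tested genes, and 5.47% of the tested genes rose. After siATM these shares were 66.5%, 49.9% and 12.5%. Both sip53 arrays lay above both siNC arrays in 18 of the 20, where 33.1% of all tested genes did. The family's median log2 value was 7.89 and 7.95 in siNC, 8.15 and 7.96 in siATM, and 8.23 and 8.14 in sip53, so sip53 was above siNC on both arrays and the siATM arrays were apart. After siATM 14 of 20 lay above 0 with a median of 0.07, 3 rose and ZNF100 fell, and the rises numbered 1 without either siNC array and 6 without siATM replicate 2. In the direct comparison 7 of the 20 were lower in siATM, where 16.3% of all tested genes were. Both sip53 arrays lay above both siATM arrays in 13, where 34.4% of all tested genes did. The identity that joins promoters was chosen after the values were seen and its members share sequence, so these counts are a description. At 70% identity 26 of 28 genes lay above 0 after sip53 and 8 rose, and at 80% 17 of 17 lay above 0 and 6 rose. Without 1 siNC or sip53 array, 18 to 20 of the 20 lay above 0 and 2 or 3 were called, and after centring 19 lay above 0 and 6 were called.

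Among these, ZNF626 read 8.45 and 8.51 in siNC, 8.54 and 8.56 in siATM, and 8.73 and 8.74 in sip53, with sip53 highest (0.25, SE 0.06, adjusted p = 0.0332). ZNF85 read 8.50 and 8.55 in siNC, 8.59 and 8.56 in siATM, and 8.93 and 8.91 in sip53, again highest in sip53 (0.39, SE 0.06, adjusted p = 0.00709). The sip53 calls of ZNF626 and ZNF85 were not among those that held whichever array was left out. ZNF43 was not called against siNC after sip53 (0.28, adjusted p = 0.0623) and was lower in siATM than in sip53 by -0.48 (adjusted p = 0.00354). ZNF493 and ZNF708, the dimmest of the named genes here, had wide errors, with 0.61 (SE 0.25) and 0.41 (SE 0.24) after sip53.

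A family of 6 around ZNF83, of 82.7% median identity, held ZNF611, ZNF701, ZNF765, ZNF808, ZNF83 and ZNF845, all on chromosome 19. ZNF611, ZNF701, ZNF808 and ZNF83 also belong to the run from ZNF577 to ZNF320. All 6 lay higher in siATM than in sip53, with a median difference of 0.26, and ZNF83, ZNF808 and ZNF765 were called (14.0% of all tested genes were). Without siATM replicate 1 or sip53 replicate 1, 5 of 6 lay higher, with medians of 0.20 and 0.28. All 6 promoters held GGGCGG and 1 held CCAAT. Against siNC, ZNF83 and ZNF808 rose after siATM, where 12.5% of all tested genes did. After siATM 5 of 6 lay above 0, and 4 of 6 without siNC replicate 1 or siATM replicate 1. The sip53 differences of the 6 ran from -0.21 to 0.21 with a median of -0.09, all not called. The plot of both families shows red points above blue ones for all 6 genes, the reverse of most of the 20.

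**Figure D5:**
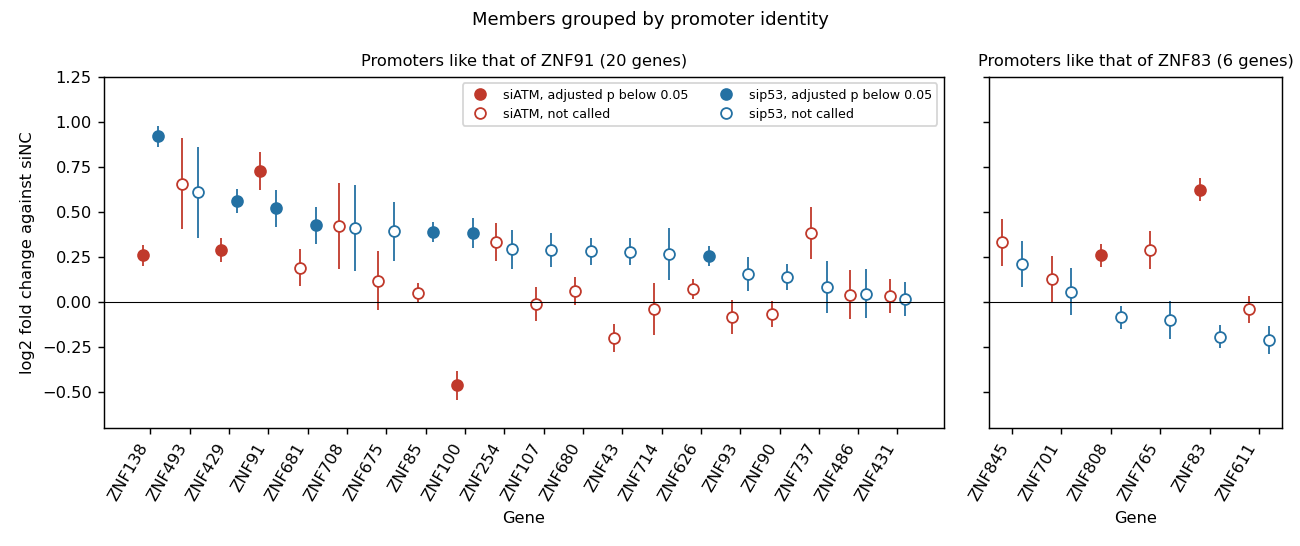
Log2 fold change against siNC (y axis) in the promoter families around ZNF91 (left, 20 genes) and ZNF83 (right, 6 genes). Genes are sorted by the sip53 value (x axis), with siATM in red and sip53 in blue. Bars are the SE and filled points had an adjusted p below 0.05. On the left all 20 sip53 points lie above 0, and on the right each siATM point lies above its sip53 point.

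Motifs were also counted by call. Of the 57 promoters of members that rose after siATM, 57.9% held CCAAT and 22.8% held CCGGAAGT, where all members had 47.9% and 19.5%. Of the 26 promoters of members that rose after sip53, 57.7% held CCAAT and 1 (3.85%) held CCGGAAGT. Among promoters of members that fell, CCAAT was in 7 of 15 (46.7%) after siATM and 3 of 5 after sip53, and CCGGAAGT in 1 of 15 (6.67%) and 2 of 5. The ZNF91 family supplied 7 of these 26, so its shared sequence is part of these shares.

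The proteins that KRAB factors use were examined as a list of corepressor and heterochromatin genes, of which 26 of 32 were tested. SETDB1 was not among the 26. After siATM 1 rose (3.85%; 12.5% of all tested genes) and 8 fell (30.8%; 13.0% of all), with a median of -0.09. After sip53 0 rose and 3 fell (11.5%; 5.11% of all), with a median of 0.03. After siATM CBX1 and CBX5, the HP1 beta and alpha proteins, fell by 0.65 and 0.51 on the log2 scale. UHRF1, which maintains DNA methylation with DNMT1, fell by 0.54, and the histone H3K9 methyltransferase SUV39H2 by 0.44. The 1 rise was that of the histone deacetylase HDAC1, by 0.29, and CBX3, at -0.11, was not called. TRIM28, the KRAB corepressor, read 11.10 and 11.11 in siNC, 10.98 and 11.09 in siATM, and 11.09 and 11.18 in sip53, with overlapping sip53 and siNC values and no call (-0.07 after siATM, adjusted p = 0.471). Without either siNC array 4 of the falls were called. After sip53 CBX5, SUV39H1 and HDAC2 fell, and these calls were all lost when any 1 siNC or sip53 array was left out.

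C2H2 genes with other symbol stems, such as ZBTB, ZKSCAN, PRDM and KLF genes, gave 121 tested genes. After siATM 25 rose (20.7%; 12.5% of all tested genes) and 10 fell (8.26%; 13.0% of all), with a median of 0.05, and 12 and 13 rises were called without siNC replicate 1 and 2. ZKSCAN1 rose by 0.57 and PRDM8 fell by 0.62 on the log2 scale. After sip53 5 rose (4.13%; 5.47% of all) and 3 fell (2.48%; 5.11% of all). CTCF, REST and YY1 were not called in any of the 3 comparisons.

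In some of the 16 members with several probe sets another probe set differed from the one used, as in ZNF451, ZNF224, ZNF248 and ZNF785. For ZNF451 the change after siATM was -0.48 with the probe set used and -0.11 with the other, the difference of siATM from sip53 was -0.29 and 0.03, and the call of that difference was lost with the mean of its probe sets (adjusted p = 0.128). The ZNF224 probe set used gave 0.03 after sip53 and its other gave 0.63 (SE 0.07). For ZNF248 the values after siATM were 0.22 and 0.75 (SE 0.12 and 0.13), and for ZNF785 -0.04 and 0.32 (SE 0.07 and 0.08). For these genes the choice of the brightest probe set decided the value given.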

How the data were processed

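The deposited table gives 1 value per probe set and array, read as log2 from the values (1.33 to 14.2), and the authors' background correction, summarisation, normalization and build were not given in the sources used here. Sorted deposited values differed by 0.0325 on average between arrays, so the arrays had been scaled to nearly 1 distribution, which removes shifts of total RNA. Of 53617 probe sets, 16098 had exactly 1 gene symbol in the platform annotation and covered 14884 genes. The other 37519, with no symbol or more than 1, were not used. The brightest probe set per gene was kept, and 10640 genes with a mean of at least 5.96 were tested. Means of the 3 groups were estimated from all 6 arrays with limma 3.58.1 (R 4.3.3; lmFit, eBayes; 3 residual and 7.29 total degrees of freedom). P-values are two-sided and adjusted by Benjamini-Hochberg within each contrast, and a call is an adjusted p below 0.05. The procedure was tested on simulated data. Scanner files, detection calls and batches were not analysed here.

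Named members were, per contrast, up to 8 highest and 8 lowest called members with no overlap of arrays, up to 8 called in both comparisons with siNC in each of the same and opposite directions, the 5 brightest, the 3 on each side of the threshold, and 10 well-studied genes. ZNF626, ZNF85, ZNF681, ZNF43, ZNF493, ZNF708, ZNF808 and ZNF765 and the genes with disagreeing probe sets were named after their values were seen. The members, lists, motifs and alternatives were chosen with earlier results of these data known. Promoters came from RefSeq (GRCh38.p14) and were aligned globally with Biopython 1.88. Neighbour order came from the RefSeq gene table. Alternatives covered the filter, scaling, probe set, moderation, arrays fitted, replicate block and leaving out each array. Runs, promoter families and their alternatives were chosen after seeing the data.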

Additional observations from a re-analysis of the deposited data

Results flagged for a closer look

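ZNF367, ZNF100 and ZNF791 were called against siNC in opposite directions, and their direct differences between siATM and sip53 were called too. A direct difference is made up of the differences from siNC, so its call largely followed from the opposite calls. The direct call is therefore not separate evidence. ZNF367 differed by -1.23 on the log2 scale, ZNF100 by -0.84 and ZNF791 by 0.46. All 3 direct differences held without any 1 array, while the sip53 calls of all 3 and the siATM call of ZNF791 against siNC did not.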

How the results depend on the processing

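No count or called fold change reversed. Of 76 called values of named members, 22 lost the call with no filter, 2 each with centring and the block, 1 each with mean probe sets and the compared arrays alone, and 3 to 24 without 1 array. Quantile normalization and the fit to only the arrays compared kept the 6 counts over all members within 1.5 times. With no filter on dim genes, 40 members rose and 8 fell after siATM, 10 rose and 1 fell after sip53, and 22 were lower in siATM than in sip53. With a filter at the 70th percentile, 46 rose and 17 fell after sip53, and with trended and robust moderation 47 and 13. Centring gave 10 falls after sip53 and medians of 0.0255 for sip53 and 0.0206 for siATM against sip53. Leaving out 1 array at a time gave 31 to 65 rises and 8 to 16 falls after siATM, 6 to 38 and 0 to 6 after sip53, and 33 to 54 higher and 19 to 38 lower members in siATM against sip53. With the replicate number as a block the counts were 62 and 18, 32 and 6, and 56 and 41. Same-numbered arrays deviated together with correlations of 0.0363, 0.0277 and 0.117, so the numbers were not taken to pair them. With 2 arrays a group, small differences in dim members could not be resolved. The cause of the counts that moved was not tested.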
